A study of Mus musculus with 6 samples.

Results

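Glycolysis and pyruvate metabolism was followed here through 34 genes, from glucose uptake to lactate export, pyruvate dehydrogenase (PDH) and the pentose phosphate pathway. The genes were chosen by name for their known step in these pathways, and all 34 were found among the 55416 genes of the count table by matching Ensembl identifiers to GENCODE M39 names. Expression was high enough to be tested for 33 of them, among 15746 genes tested in all. Only Pdk2, a PDH kinase, was too low, with 10, 6 and 5 counts in the WT libraries and 3, 6 and 3 counts in the KO libraries.

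RNA-seq was performed on epiblast-like cells (EpiLCs), the formative cells obtained here after 48 h of differentiation from naïve mouse embryonic stem cells in N2B27 medium with KSR, bFGF and Activin A on fibronectin. WT EpiLCs came from the 46C line, which carries a Sox1-GFP reporter, and KO EpiLCs from a clone of the same line with a homozygous insertion of 1 nucleotide in Oct6 (Pou3f1), a POU transcription factor. Both genotypes therefore share the reporter and the medium, and since the KO cells are a single clone, the effect of the genotype and that of the clone cannot be told apart. There were 3 biological replicates of each genotype, described as paired, and 10995505 to 14680930 counts per library.

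Glycolysis splits glucose into pyruvate through a chain of cytosolic enzymes and yields ATP and NADH. Pyruvate is then either reduced to lactate and exported, or carried into mitochondria, where the PDH complex turns it into acetyl-CoA for the TCA cycle. Most steps have several isoenzymes encoded by different genes. When naïve pluripotent cells advance towards the primed state they are known to rely more on glycolysis and less on oxidative phosphorylation, and hypoxia-inducible factors and MYC proteins are known activators of glycolytic genes.

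At an adjusted p below 0.1 in edgeR's quasi-likelihood test (Benjamini-Hochberg over all genes tested), 11 of the 33 members (33.3%) differed between WT and KO EpiLCs, against 24.3% of all genes tested. Slc2a1, Slc2a3, Hk2, Eno2, Eno3, Ldhb, Slc16a3, Pdha1 and Pdhb were lower in KO EpiLCs, that is 9 members (27.3%), against 12.5% of all genes tested. Pfkm and Pfkp were higher, that is 2 members (6.06%), against 11.8%. Hk2 was the only member that also had a log2 fold change of 1 or more in absolute value, a size that 6.21% of all genes tested reached with their call. The 3 WT values and the 3 KO values did not overlap for 12 members (36.4%), 10 of them lower in KO EpiLCs, against 33.7% of all genes tested. Log2 fold changes of the members (KO over WT) ran from −1.11 to 0.86 with a median of −0.12, when that of all genes tested was 0.0014. With the replicate number as a block in the same edgeR test, 18 members (54.5%) were called, 14 lower and 4 higher, against 30.3% of all genes tested. The members added by the block are named at their steps below. Counts come from bulk RNA, in which fewer cells of a type and less RNA per cell cannot be told apart.

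**Figure D1:**
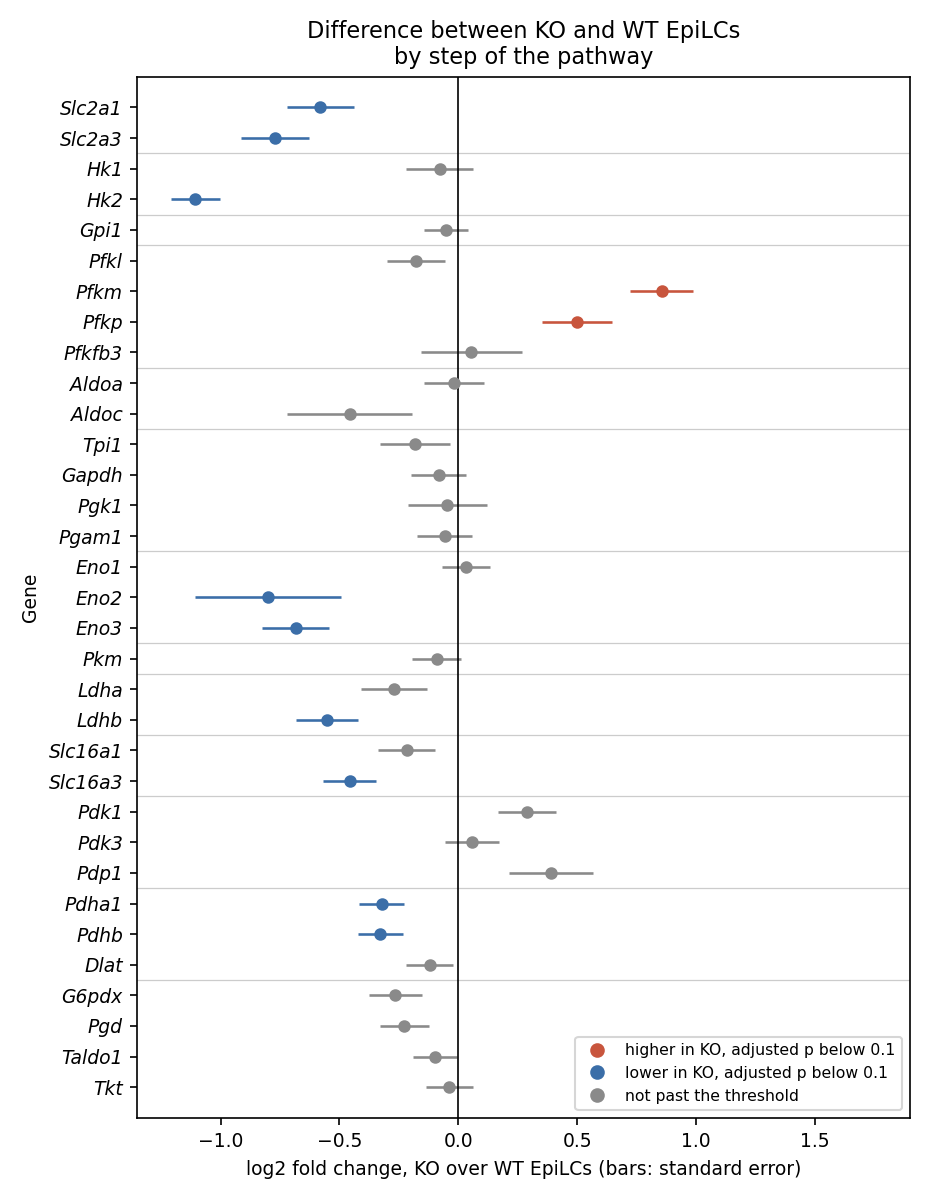
Log2 fold change of the 33 members tested, KO over WT EpiLCs, in the order of the pathway, with bars for the standard error and grey lines between steps. Calls in the lower direction (blue, 9 members) lie at glucose uptake, hexokinase, enolase, lactate and the PDH complex, and both calls in the higher direction (red) are phosphofructokinases.

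Transcript levels were compared between genes as CPM (counts scaled to the library size after TMM normalization) per kilobase of the canonical transcript. On this scale, the highest members in WT EpiLCs were Pkm, the pyruvate kinase gene, with 1308 ± 162 (SD, n = 3), the aldolase gene Aldoa with 972 ± 166 and Gapdh with 720 ± 133. Next came Tpi1 with 496 ± 122, Ldha with 405 ± 91.6, Eno1 with 338 ± 35.8 and Tkt with 265 ± 24.9 CPM per kilobase. Ldha and Eno1 were closer to each other than the SD of Ldha, and so were Pgk1 (227 ± 70.5) and Taldo1 (226 ± 14.0) by the SD of either gene. Eno2 (1.20 ± 0.0919) and Pfkfb3 (1.36 ± 0.338) were the lowest of the members tested. None of the 9 members highest on this scale in WT EpiLCs, Pkm to Taldo1, passed the test between genotypes without the replicate block. Of all genes tested, 24.3% did. The cut at 9 follows the calls, since the next member on this scale, Slc2a3 (126 ± 22.4), was called.

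Glucose enters the cell through the facilitative transporters GLUT1, encoded by Slc2a1, and GLUT3, encoded by Slc2a3, and both genes were lower in KO EpiLCs. Slc2a3 (ENSMUSG00000003153.11, chromosome 6 of GRCm39, 122704768 to 122778599, minus strand) was at 398, 564 and 535 CPM in the WT libraries, given here and below in the order of replicates 1 to 3, and at 243, 266 and 367 CPM in the KO libraries. The highest KO library lay below the lowest WT library. Its mean was 499 ± 88.6 CPM in WT and 292 ± 65.8 CPM in KO EpiLCs (SD, n = 3), with a log2 fold change of −0.77 (SE 0.14, edgeR adjusted p = 7.2e-04). Slc2a1 (ENSMUSG00000028645.12, chromosome 4, 118965908 to 118996365) had 178, 240.3 and 226 CPM in WT and 109, 147 and 175 CPM in KO libraries. The gap between the groups was small, WT replicate 1 being the closest to the KO values. Its log2 fold change was −0.58 (SE 0.14, edgeR adjusted p = 0.00667). Slc2a3 took 72.2 ± 0.597% of the counts per length of the pair in WT and 69.6 ± 2.25% in KO EpiLCs, with the closest libraries at 71.53% and 71.51%. The difference of −2.63 percentage points became −1.39 without KO replicate 2.

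Hexokinases trap glucose in the cell by phosphorylation, and Hk2, the inducible isoenzyme bound to mitochondria, showed the largest difference of all members. Hk2 (ENSMUSG00000000628.11, chromosome 6, 82699740 to 82751469, minus strand) had 231, 246 and 248 CPM in WT and 110.1, 99.6 and 127 CPM in KO libraries. The WT libraries were close to each other and each was well above every KO library. The mean fell from 242 ± 9.25 to 112 ± 13.6 CPM, or 0.464 times the WT level, with a log2 fold change of −1.11 (SE 0.10, edgeR adjusted p = 8.0e-07). Hk1, the widely expressed isoenzyme, had 27.3 ± 3.20 CPM in WT and 25.8 ± 4.16 CPM in KO EpiLCs and did not pass the test (log2 fold change −0.08, edgeR adjusted p = 0.764). Hk2 thus made up 84.0%, 81.5% and 83.3% of the counts per length of both hexokinases in WT libraries and 71.7%, 70.3% and 69.4% in KO libraries. This share does not depend on library scaling, and its difference was −12.5 percentage points (exact two-sided permutation test, p = 0.1, the lowest that 3 against 3 libraries can give). Gpi1, which converts glucose 6-phosphate to fructose 6-phosphate, had 288 ± 15.1 and 278 ± 5.85 CPM (log2 fold change −0.05, edgeR adjusted p = 0.768).

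Phosphofructokinase catalyses the committed step of glycolysis and is a tetramer of liver (Pfkl), muscle (Pfkm) and platelet (Pfkp) type subunits. Pfkm (ENSMUSG00000033065.15, chromosome 15, 97990451 to 98031417) had 41.1, 66.5 and 53.0 CPM in WT and 98.7, 93.3 and 97.9 CPM in KO libraries. All KO libraries were above all WT libraries and were close to each other, whereas the WT libraries were spread. The mean rose from 53.5 ± 12.8 to 96.7 ± 2.89 CPM, with a log2 fold change of 0.86 (SE 0.13, edgeR adjusted p = 1.4e-04). Pfkp had 78.1, 124 and 118 CPM in WT and 126, 151 and 176 CPM in KO libraries, a log2 fold change of 0.50 (SE 0.15, edgeR adjusted p = 0.021). Its highest WT library nearly reached its lowest KO library. The call of Pfkp was lost without WT replicate 1 (log2 fold change 0.31, adjusted p = 0.111) and without KO replicate 3 (0.37, adjusted p = 0.143). Pfkl, the most abundant of the subunits, had 374 ± 68.6 and 331 ± 35.3 CPM and was not called (log2 fold change −0.18, edgeR adjusted p = 0.367). Pfkfb3, which makes the allosteric activator fructose 2,6-bisphosphate, had only 7.66 ± 1.91 and 7.90 ± 1.30 CPM (log2 fold change 0.05, edgeR adjusted p = 0.903).

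The composition of the phosphofructokinase family was compared within each library. Pfkl took 70.6 ± 1.16% of the family's counts per length in WT and 57.6 ± 1.22% in KO EpiLCs, Pfkm 10.3 ± 0.626% and 17.4 ± 2.07%, and Pfkp 19.1 ± 1.18% and 24.9 ± 1.76% (SD, n = 3). No share overlapped between the genotypes. Over the 8 families with isoenzymes and their 19 shares, 10 shares did not overlap, those of the glucose transporters, hexokinases, phosphofructokinases and enolases. Shares of a family add up to the whole, so the 19 are not separate tests, and both shares of a pair mirror each other. Every one of these had the lowest possible exact permutation p of 0.1, which became 0.19 after Benjamini-Hochberg adjustment over the 19 shares, so that this design could not bring a share past 0.05.

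**Figure D2:**
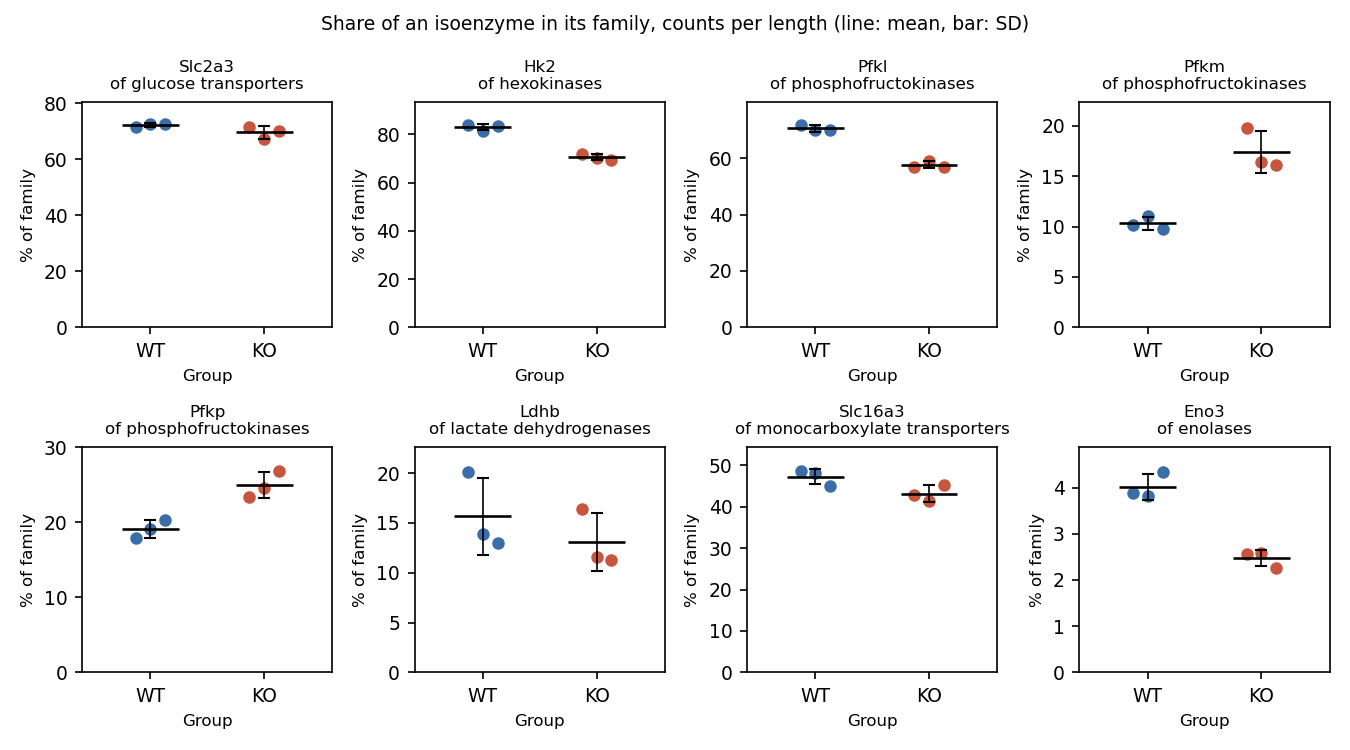
Share of 8 isoenzymes in the counts per length of their family (percent), with a point for each of the 3 WT (blue) and 3 KO (red) libraries, a line for the mean and a bar for the SD. Hk2 had means of 82.9% in WT and 70.5% in KO EpiLCs and Pfkl of 70.6% and 57.6%, without overlap, whereas the shares of Ldhb and Slc16a3 overlapped.

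Promoter sequence is shown for Hk2 and Slc2a3, which were among the most lowered members, for Pfkm, which rose most, and for Ldha, chosen after the search for its many matches. The motif was the core of the hypoxia response element, spelled ACGTG or GCGTG and searched on both strands in the 250 bases before the start of the GENCODE canonical transcript. Sequences are from GRCm39, 5′ to 3′ on the strand of the gene, and capitals mark the matches, which read CACGT or CACGC where they lie on the other strand. The windows are chr6:82751453-82751702 on the minus strand for Hk2, chr6:122719705-122719954 on the minus strand for Slc2a3, chr15:98006074-98006323 on the plus strand for Pfkm and chr7:46495013-46495262 on the plus strand for Ldha. All 4 canonical starts lie inside the annotated span of their gene, that of Hk2 close to its 5′ end and those of Slc2a3, Pfkm and Ldha further in.
Hk2: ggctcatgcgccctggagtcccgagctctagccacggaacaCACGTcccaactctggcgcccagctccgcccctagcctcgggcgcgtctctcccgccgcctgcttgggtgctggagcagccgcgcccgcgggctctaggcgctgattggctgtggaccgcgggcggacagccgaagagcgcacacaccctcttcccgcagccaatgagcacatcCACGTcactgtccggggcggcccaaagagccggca
Slc2a3: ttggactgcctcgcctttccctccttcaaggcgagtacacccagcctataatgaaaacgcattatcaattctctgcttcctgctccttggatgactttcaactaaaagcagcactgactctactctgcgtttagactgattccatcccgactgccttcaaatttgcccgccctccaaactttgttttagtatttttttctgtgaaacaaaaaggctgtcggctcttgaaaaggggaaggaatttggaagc
Pfkm: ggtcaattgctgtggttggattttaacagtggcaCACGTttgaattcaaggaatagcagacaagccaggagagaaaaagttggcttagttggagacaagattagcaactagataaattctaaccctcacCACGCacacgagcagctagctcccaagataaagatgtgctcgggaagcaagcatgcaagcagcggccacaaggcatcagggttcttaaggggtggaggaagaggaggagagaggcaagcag
Ldha: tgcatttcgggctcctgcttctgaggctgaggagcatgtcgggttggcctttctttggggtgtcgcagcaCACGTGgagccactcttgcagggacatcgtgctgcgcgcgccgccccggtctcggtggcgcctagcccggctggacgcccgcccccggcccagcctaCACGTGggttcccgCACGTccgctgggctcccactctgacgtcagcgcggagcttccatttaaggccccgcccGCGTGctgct
Matches were found in 24 of the 34 member promoters (70.6%), in 52.8% of 13113 promoters of tested protein-coding genes and in 41.3% of 21757 promoters of all protein-coding genes. Hk2 and Pfkm, which differed in opposite directions, had 2 matches each, Ldha had 6, counting both strands of a palindrome, and Slc2a3 had none in this window. Of the members called lower, 7 of 9 had a match, as did 2 of 2 called higher and 14 of 22 not called. The E box CACGTG, bound by MYC and other factors and overlapping the first motif, was in 5 member promoters (14.7%, against 7.83% of tested genes). The octamer ATGCAAAT, the motif of POU factors, was in 0 of 34, against 1.35% of tested genes. A match, or the lack of one, describes only the letters of this window.

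Aldolase and the triose steps, which form the middle of the pathway, held no called member. Aldoa had 1205, 1704 and 1496 CPM in WT and 1199, 1650 and 1505 CPM in KO libraries, pair by pair nearly the same values (log2 fold change −0.02, SE 0.13). Aldoc, the brain isoenzyme, had a log2 fold change of −0.46 (SE 0.26, edgeR adjusted p = 0.267), which passed with the replicate block (adjusted p = 0.0279), at a mean of 16.8 ± 7.02 CPM in WT and 12.1 ± 3.97 CPM in KO EpiLCs. Tpi1, which interconverts the trioses, had 797 ± 196 and 702 ± 116 CPM (log2 fold change −0.18, edgeR adjusted p = 0.442). Pgam1, the phosphoglycerate mutase, had 192 ± 24.0 and 184 ± 25.2 CPM (−0.06, adjusted p = 0.796).

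Gapdh, which oxidizes glyceraldehyde 3-phosphate, and Pgk1, which makes the first ATP of the pathway, served as the reference genes for RT-qPCR in the study. Gapdh had 1224, 994 and 850.1 CPM in WT and 958, 1021 and 919 CPM in KO libraries. Pgk1 had 279.6, 536 and 430.1 CPM in WT and 324, 452 and 429 CPM in KO libraries. Neither passed the test (log2 fold changes −0.08 and −0.05, edgeR adjusted p = 0.694 and 0.892), but both varied between replicates of WT EpiLCs, Gapdh being highest and Pgk1 lowest in replicate 1. Their geometric mean was 585, 729 and 605 CPM in WT and 557, 679 and 628 CPM in KO libraries, a difference of −0.04 on the log2 scale (exact two-sided permutation test, p = 0.7, lowest possible 0.1). The highest library was 1.31 times the lowest.

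Enolase converts 2-phosphoglycerate to phosphoenolpyruvate, and both minor isoenzyme genes were lower in KO EpiLCs while the major one was not called. Eno1 made up 95.7 ± 0.279% of the family's counts per length in WT and 97.3 ± 0.112% in KO EpiLCs and had 774 ± 82.1 and 792 ± 55.6 CPM (log2 fold change 0.03, edgeR adjusted p = 0.866). Eno3, the muscle enolase, had 22.8, 26.3 and 24.6 CPM in WT and 14.9, 17.2 and 13.7 CPM in KO libraries, which did not overlap. Its log2 fold change was −0.68 (SE 0.14, edgeR adjusted p = 0.00182). Eno2, the neuronal enolase, had 3.51, 3.47 and 3.04 CPM in WT and 1.38, 1.77 and 2.56 CPM in KO libraries, a log2 fold change of −0.80 (SE 0.31, edgeR adjusted p = 0.0786). At these low levels its call was lost in DESeq2 (adjusted p = 0.120) and whenever any library other than KO replicate 3 was left out, over log2 fold changes from −0.62 (without KO replicate 1) to −0.87 (without WT replicate 3) and adjusted p-values up to 0.251. Pkm, whose M1 and M2 isoforms are not separated by counts per gene, had 3202 ± 396 and 3008 ± 208 CPM (log2 fold change −0.09, edgeR adjusted p = 0.616).

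**Figure D3:**
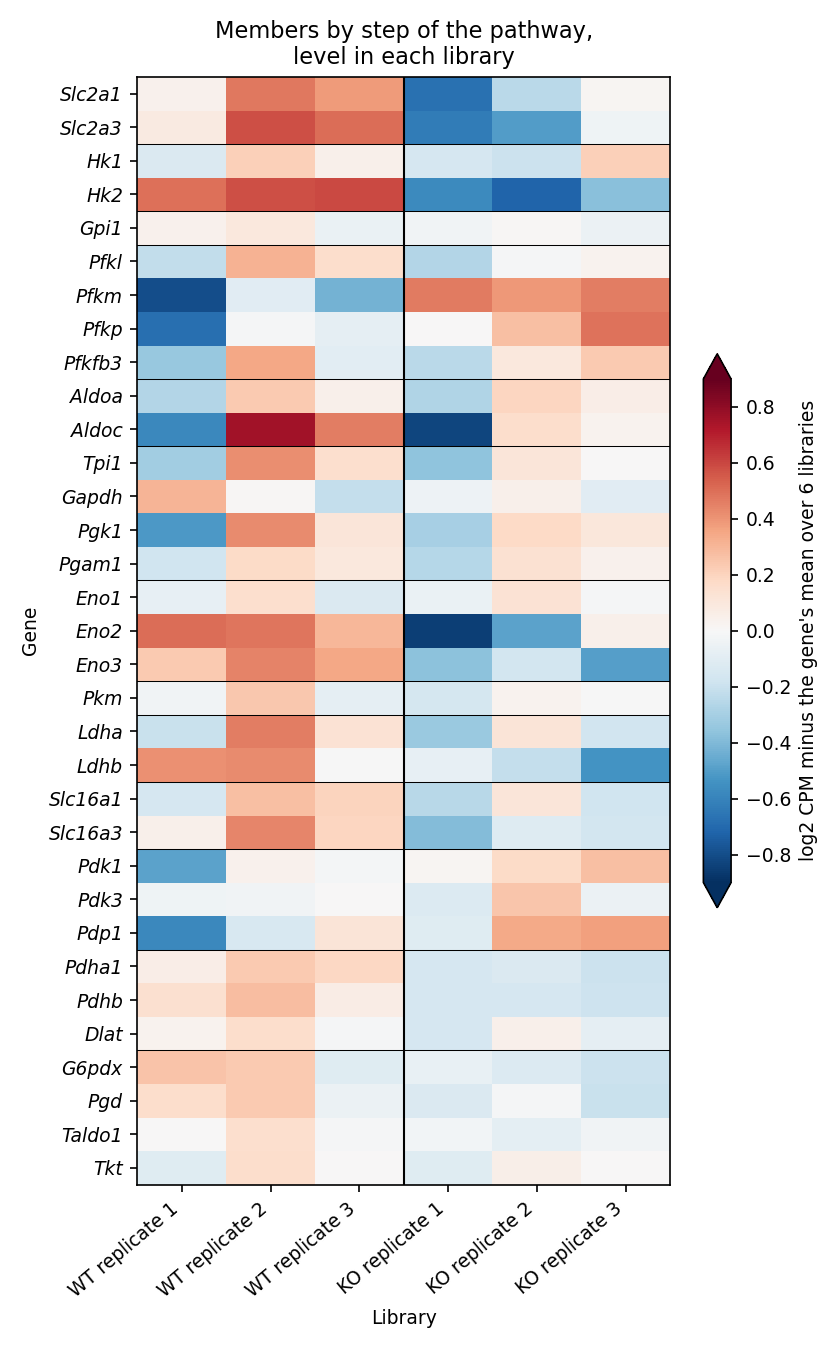
Level of each of the 33 members tested in each of the 6 libraries, as log2 CPM minus the gene's mean over all libraries, with rows in the order of the pathway. Hk2 and Eno3 are blue in every KO library and Pfkm is red in every KO library, and Aldoa, Tpi1, Pgk1, Pgam1 and Ldha are lowest in replicate 1 of both genotypes.

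Lactate dehydrogenase reduces pyruvate to lactate with A (Ldha) and B (Ldhb) subunits, of which B favours the reverse reaction. Ldhb had 122, 123 and 91.1 CPM in WT and 86.8, 78.9 and 63.0 CPM in KO libraries. WT replicate 3 was only slightly above the highest KO library. The mean fell from 112 ± 18.0 to 76.2 ± 12.1 CPM, with a log2 fold change of −0.55 (SE 0.13, edgeR adjusted p = 0.0047). Ldha had 503, 793 and 631 CPM in WT and 458, 627 and 513 CPM in KO libraries, lower in KO in each pair, with overlapping groups. Its log2 fold change of −0.27 (SE 0.14) did not pass without the replicate block (edgeR adjusted p = 0.205) and passed with it (0.0146). Ldhb held 15.7 ± 3.85% of the counts per length of both subunits in WT and 13.1 ± 2.90% in KO EpiLCs, which overlapped (exact permutation p = 0.5). The difference of −2.55 percentage points ran from −0.342 without WT replicate 1 to −4.23 without KO replicate 1, and was −3.87 without WT replicate 3 and −1.66 without KO replicate 3.

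Monocarboxylate transporters carry lactate across the membrane, MCT4 (Slc16a3) mainly outwards and MCT1 (Slc16a1) in either direction. Slc16a3 had 347, 456 and 386 CPM in WT and 256, 310.3 and 299.5 CPM in KO libraries, with every KO library below every WT library. Its log2 fold change was −0.46 (SE 0.11, edgeR adjusted p = 0.00647). Slc16a1 had 434 ± 65.7 and 373 ± 50.6 CPM, with a log2 fold change of −0.22 that did not pass without the block (edgeR adjusted p = 0.237) and passed with it (0.0551). The share of Slc16a3 in the counts per length of the pair was 47.3 ± 1.86% in WT and 43.2 ± 2.03% in KO EpiLCs and overlapped (exact permutation p = 0.2).

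The PDH complex commits pyruvate to acetyl-CoA, and the genes of both subunits of its E1 component were lower in KO EpiLCs by similar amounts. Pdha1 (E1 alpha) had 233, 264 and 256 CPM in WT and 202, 204 and 196 CPM in KO libraries, a log2 fold change of −0.32 (SE 0.09, edgeR adjusted p = 0.0198). Pdhb (E1 beta) had 144, 158 and 137 CPM in WT and 117, 117 and 114 CPM in KO libraries, a log2 fold change of −0.33 (SE 0.10, edgeR adjusted p = 0.0203). For each gene the KO libraries were tightly grouped below all WT libraries. Dlat, the E2 subunit, had 127 ± 7.95 and 117 ± 8.26 CPM and was not called (−0.12, edgeR adjusted p = 0.452). The calls of Pdha1 and Pdhb were lost when libraries were scaled to Gapdh and Pgk1 (log2 fold changes −0.28 and −0.28, adjusted p = 0.326 and 0.334), a scaling under which 15.0% of all genes tested were called.

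PDH kinases switch the complex off and PDH phosphatases switch it on again. Pdk1 had 342, 492 and 473 CPM in WT and 483, 538 and 576 CPM in KO libraries, higher in KO in each pair, although WT replicate 2 exceeded KO replicate 1. Its log2 fold change of 0.29 (SE 0.12) missed the threshold without the block (edgeR adjusted p = 0.11) and passed with it (0.00679). Pdp1, a phosphatase gene, had 16.2 ± 3.84 and 21.3 ± 3.70 CPM and a log2 fold change of 0.39 (edgeR adjusted p = 0.142 without and 0.0275 with the block). Pdk3 had 52.1 ± 0.853 and 54.2 ± 7.64 CPM (0.06, adjusted p = 0.787). Pdk1 held 79.1 ± 3.28% of the kinases' counts per length in WT and 82.0 ± 2.06% in KO EpiLCs, Pdk3 20.7 ± 3.17% and 17.9 ± 2.02%, and Pdk2 0.238 ± 0.125% and 0.109 ± 0.0427%, all overlapping. The difference in the share of Pdk1, 2.89 percentage points, became 1.02 without WT replicate 1 and 1.92 without KO replicate 3.

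In the pentose phosphate pathway, which makes NADPH and ribose, no member was called without the block. The oxidative enzymes G6pdx, with 78.4 ± 10.7 and 65.2 ± 2.73 CPM, and Pgd, with 116 ± 11.9 and 99.4 ± 6.70 CPM, had log2 fold changes of −0.26 and −0.23 (edgeR adjusted p = 0.112 and 0.144). Both were lower in KO EpiLCs in each pair and passed with the block (adjusted p = 0.0516 and 0.0645). In the non-oxidative branch, Tkt had 857 ± 80.4 and 835 ± 48.0 CPM (−0.04, edgeR adjusted p = 0.848). Taldo1 had 285 ± 17.7 and 267 ± 6.43 CPM (−0.10, edgeR adjusted p = 0.534), and its groups did not overlap.

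Replicates of the same number moved together in many members. In 17 of the 33 members (51.5%), replicate 1 was the lowest of the 3 libraries in both genotypes, against 14.4% of all genes tested, a comparison chosen after the values had been seen. Among them were Slc2a1, Slc2a3, Pfkl, Pfkp, Aldoa, Aldoc, Tpi1, Pgk1, Pgam1, Ldha, both lactate transporters and Pdk1. Of the 20 hypoxia response genes outside glycolysis that were listed for comparison, 10 (50.0%) had the same pattern, as did 5 of 20 TCA cycle genes (25.0%). It was less frequent in the list of other pathway genes, with 4 of 32 tested (12.5%). Among regulators of glycolytic genes, 1 of 14 tested had it (7.14%). Without both replicate 1 libraries, 11 members were called, Aldoc being added and Eno2 lost. In that fit 17.8% of all genes tested were called, instead of 24.3%. Pair by pair, 25, 27 and 22 of the 33 members were lower in KO than in WT in pairs 1, 2 and 3, with median log2 ratios of −0.10, −0.24 and −0.07. The medians of all genes in these pairs were −0.0070, 0.0099 and 0.0011.

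Of the members tested, 6 lie on chromosome 6, where 50.6% of the genes tested were called, against 23.0% on the other chromosomes, and where the median log2 fold change was −0.40. Slc2a3, Hk2, Eno2 and Ldhb were called there and were all lower, whereas Gapdh and Tpi1 were not called. Most calls on this chromosome had that direction, with 356 of 391 lower among its 773 genes tested. On the other chromosomes, 7 of 27 members were called (25.9%, near the 23.0% of genes tested there), 5 of them lower, with a median of −0.09. Over all chromosomes together, 12.5% of genes tested were called lower. The genes within 5 Mb of Hk2 had a median log2 fold change of −0.50, so that Hk2 was lower than its neighbours by a further −0.60. Around Ldhb the median was −0.45, which left −0.10 for Ldhb. Slc2a3 and Eno2 lie in a stretch with local medians of −0.06 and −0.04, and kept −0.71 and −0.76. Outside chromosome 6, the neighbours of Pfkp had a median of 0.23, which left 0.27 for Pfkp, and those of Pfkm a median of −0.12, which left 0.97. Pdha1 and Pdhb had neighbours with medians of 0.17 and 0.26 and differed from them by −0.49 and −0.59. The part of the neighbourhood in these differences was not tested.

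**Figure D4:**
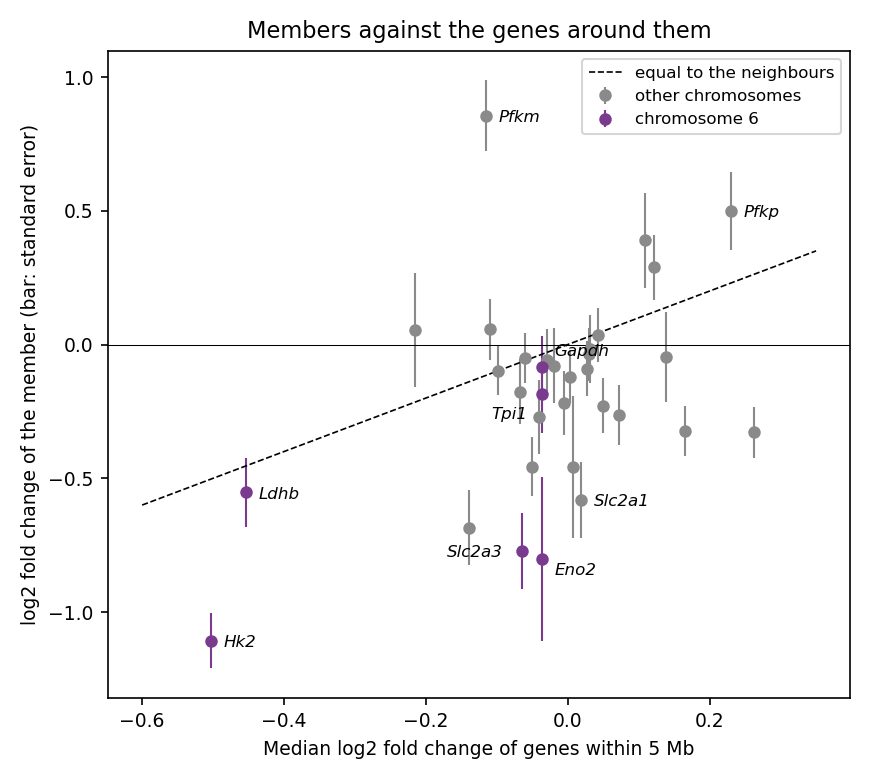
Log2 fold change of each member (KO over WT, bars for the standard error) against the median log2 fold change of the genes tested within 5 Mb on either side, with a dashed line where both are equal. Ldhb lies near the line at a local median of −0.45, Hk2 lies below it at −0.50, and Slc2a3 and Eno2 lie far below it at local medians near 0.

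Other genes of the pathway were counted from a list of 44, of which 32 were tested and 11 called (34.4%, against 24.3% of all genes tested), 8 lower (25.0%, against 12.5%) and 3 higher (9.38%, against 11.8%), with a median of −0.11. The lower ones were the insulin-responsive transporter Slc2a4 (log2 fold change −1.20), Pgam2 (−1.03), Ldhc (−1.03), Bpgm (−0.97), G6pc3 (−0.93), Ldhd (−0.90), Rpia (−0.43) and Adpgk (−0.29). Bpgm and Rpia lie on chromosome 6 with local medians of −0.54. The higher ones were the transketolase-like gene Tktl2 (1.11), the pentose phosphate epimerase Rpe (0.47) and pyruvate carboxylase Pcx (0.31). Most of these were low, Slc2a4, Pgam2 and Ldhd having under 5 CPM in every library. In the TCA cycle, 3 of 20 genes were called (15.0%, against 24.3%), Idh2 (0.41) and Sdhc (0.24) higher and Suclg1 (−0.42, on chromosome 6 with a local median of −0.54) lower, and the median was −0.0014.

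Among the hypoxia response genes outside glycolysis, 5 of 20 were called (25.0%, against 24.3% of all genes tested) and the median was −0.03. Vegfa (−0.95), P4ha2 (−0.60) and Ddit4 (−0.56) were lower, whereas Fam162a (1.01, local median 0.57) and Plod2 (0.47) were higher. Of 14 regulators of glycolytic genes tested, 4 were called (28.6%, against 24.3% of all genes tested), all higher (against 11.8%), and the median was 0.02. They were Esrrb (1.39), Mycn (0.55), Epas1 (0.42) and Max (0.33). Hif1a had a log2 fold change of 0.22, which did not pass without the replicate block (edgeR adjusted p = 0.147) and passed with it (0.0537), and Myc one of −0.21 (0.542). The block also added Esrra, which was lower (−0.32, adjusted p = 0.0617 with the block). With it 6 regulators were called (42.9%, against 30.3% of all genes tested), 5 higher and 1 lower. Among the hypoxia response genes the block added Bnip3 (0.0253, higher) and Stc2 (0.0799, lower), for 7 calls (35.0%, near the 30.3% of all genes tested).

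The targeted gene Pou3f1 had 142 ± 19.4 CPM in WT and 132 ± 7.59 CPM in KO EpiLCs (edgeR adjusted p = 0.574), and counts per gene do not register the insertion. Markers of the epiblast and of other cell types were summed in each library, without a test of the sums. For 6 mesoderm markers the sum ran from 6.47 to 7.12 CPM in WT and from 10.4 to 14.4 CPM in KO libraries, and for 6 primitive endoderm markers, which overlapped, from 4.50 to 5.23 and from 4.88 to 13.8 CPM. Only 2 of the mesoderm markers and 3 of the primitive endoderm markers were expressed highly enough to be tested. Neural markers ran from 35.6 to 44.2 and from 27.8 to 31.9 CPM, trophoblast markers from 176 to 193 and from 106 to 133 CPM, and epiblast markers, which overlapped, from 2620 to 2880 and from 2570 to 2660 CPM. The trophoblast list was Cdx2, Elf5, Krt7, Krt8, Krt18 and Tfap2c, of which 4 were tested. Which of them carry its sum is not given here. Single markers did not all follow their sum. In the neural list, all 3 markers tested were called, against 24.3% of all genes tested. Of these, 2 were lower, with log2 fold changes down to −1.78, and 1, Neurod1, was higher (0.95). The neural sum is mostly Tubb3 (−0.61). In the epiblast list, Otx2 (0.92), Fgf5 (0.65) and Sox2 (0.42) were higher, whereas its sum is mostly Dnmt3b and Pou5f1 (both −0.19, not called). No marker was at 0 in all libraries, and their part in the differences of the members was not tested.

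Some members share sequence or exons with other genes, and how the counting treated such reads is not given in the sources used here. Eno1b, a copy of Eno1, held 17.4% to 18.7% of the counts of both (log2 fold change 0.05). Of the called members, Slc16a3 shares 40.1% of its exon length with Csnk1d on the opposite strand (log2 fold change −0.17), Pdhb 27.8% with Pxk (0.26), Pdha1 13.4% with Map3k15 (0.34), Pfkp 11.1% with Pitrm1 (−0.12) and Eno3 18.6% with the noncoding Gm12319 (−0.64, edgeR adjusted p = 0.47). Pfkm shares 20.6% with a noncoding gene on the same strand, Gm26513, that was not tested. Among members not called, Aldoa shares 43.1% with Gm57854 and Pkm 23.5% with Gm49759, both on the same strand. Gapdh shares 41.6% with Iffo1, Pfkl 39.8% with Cfap410 and Tpi1 24.1% with Gm67878, all on the opposite strand. Whether such reads changed the levels and shares of these genes was not tested.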

How the data were processed

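Total RNA of WT and Oct6 KO EpiLCs was sequenced as paired ends after a stranded library preparation, with 3 libraries of each genotype. After quality control (FastQC) and trimming (Fastp), the authors aligned reads to GRCm39 by STAR and deposited its raw counts per gene, neither normalized nor filtered. The version of STAR, the annotation, the strand setting and the handling of multiply mapped reads are not given in the sources used here. The submitters' processing notes also name DESeq2, and none of the authors' own comparisons was used.

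Of 55416 identifiers, 54749 matched GENCODE M39, and the other 667 held 0.0602% of the counts. Counts were tested in R 4.3.3 with edgeR 4.0.16 (TMM, factors 0.974 to 1.02, filterByExpr with a minimum count of 10, quasi-likelihood test, genotype as the only term), with Benjamini-Hochberg adjustment over 15746 genes and a threshold of 0.1. The biological coefficient of variation was 11.7%, and the standard errors and SDs carry the precision that these depths and 3 libraries give. CPM are relative to the TMM library size. Isoenzyme shares divide counts by the length of the canonical transcript and were compared by exact two-sided permutation of the libraries. The test was checked on simulated counts.

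The members and lists were chosen with earlier results of these data known. All members are accounted for. Of the other lists, the genes past the threshold without the block are named, except in the lists of cell type markers, where only some are. Libraries of the same number deviated together from their group means over 13228 genes (correlations 0.253, 0.302 and 0.124), and the study calls the replicates paired. None of the correlations between different numbers was above 0. Subtracting the group means pushes those below 0 once the others are positive, so they are not separate evidence of pairing. Alternatives were DESeq2 1.42.0, RLE size factors, library totals alone, scaling to Gapdh and Pgk1, no filter, 10 counts in every library, a replicate block, a threshold of 0.05, local medians and each library left out. The omission of both replicate 1 libraries was chosen after seeing the data.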

Additional observations from a re-analysis of the deposited data

How the results depend on the processing

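The called members kept their direction under every alternative run. Of the 11 called members, 10 were called by DESeq2, when 22.3% of all genes tested were called. All 11 were called with RLE size factors (24.4% of all genes) and with at least 10 counts in every library (25.2% of 13878 genes). When libraries were scaled to Gapdh and Pgk1, 8 were called, where 15.0% of all genes tested were called instead of 24.3%. With library totals alone 13 members were called (23.9% of all genes), and without a filter 14 (12.4% of 30691 genes). The replicate block, which follows the pairing, gave 18 members, including all 11, and lost none of them. Leaving out 1 library gave 10 to 14 members, when 18.9% to 23.4% of all genes tested were called. The number called with a log2 fold change of 1 or more in absolute value ran from 1 to 2 when a library was left out, Pfkm being added without WT replicate 2 (1.03) and Eno2 without KO replicate 3 (−1.07). The median of the members was −0.20 without WT replicate 1 and −0.06 without WT replicate 2. Calls among the other pathway genes numbered 6 when scaled to Gapdh and Pgk1, 7 at an adjusted p below 0.05, 6 without both replicate 1 libraries and 6 to 11 with 1 library left out. Without both replicate 1 libraries, 17.8% of all genes tested were called. The TCA cycle had 1 call when scaled to Gapdh and Pgk1. The regulators had 2 calls when scaled to Gapdh and Pgk1, 2 at an adjusted p below 0.05, and 2 to 5 with 1 library left out. The share of all genes below 0.05 is not given, so the counts at that threshold have no background beside them. Calculated from counts without length, the share of Hk2 differed by −8.54 instead of −12.5 percentage points. Eno2 and Pdk2 are the members whose values the depth limits most, and the cause of the lost and added calls was not tested.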
